A study of Mus musculus with 10 samples.

Results

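A set of 9 genes of the red cell lineage was followed in RNA of leukaemic spleen cells: Hbb-b1, Hba-a2, Alas2, Epor, Klf1, Gata1, Tmod1, Spnb1 and Tspan33. They were taken by gene name, and all 9 were found among the 38215 genes of the deposited table, where Spnb1 is the older name of Sptb and Hbb-b1 is the gene that GENCODE M21 calls Hbb-bs. The cells came from a mouse model of acute myeloid leukaemia (AML). Lineage-depleted bone marrow was transduced with the retrovirus MSCV-IRES-GFP carrying the oncogenes AML1-ETO and NrasG12D, which mark the transduced cells with green fluorescent protein (GFP), and the first leukaemias grew in Rag2-/-γc-/- mice. GFP+ spleen cells from those mice were passed to secondary recipients, and GFP+ spleen cells were isolated again once these were ill. The secondary recipients were 5 Rag2-/-γc-/- mice (libraries 7, 8, 9, 10 and 11), a strain without T cells, B cells or natural killer cells, and 5 immunocompetent C57BL/6J mice (libraries 1, 3, 4, 5 and 6). Both groups therefore carry both oncogenes and the GFP marker and have passed through an immunodeficient host once, and the comparison asks how a second passage with or without lymphocytes leaves these transcripts. Neither the number of primary leukaemias behind the 10 mice nor the age or sex of the recipients is given in the sources used here, so the p-values rest on variation among recipients of what may be few leukaemias.

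Red cell precursors arise from progenitors that depend on erythropoietin signalling and on the transcription factors GATA1 and KLF1. These factors switch on the globin genes, the enzymes of haem synthesis and the proteins of the membrane skeleton that give the red cell its shape. In the mouse the spleen remains a site of red cell production and of red cell removal by macrophages of the red pulp.

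Libraries held 28157745 to 62461126 expected counts in the Rag2-/-γc-/- group and 32703932 to 44097690 in the C57BL/6J group. Levels are given as CPM, the counts of a gene per 1000000 counts of its library, after scaling by the trimmed mean of M values (TMM). The libraries were not dominated by erythroid RNA. The 4 adult globin genes together took 0.00734 to 0.0229% of the counts in Rag2-/-γc-/- libraries and 0.00142 to 0.0142% in C57BL/6J libraries. The dendritic cell markers Wdfy4 and Irf8 were far more abundant, averaging 1804 CPM (Wdfy4) and 1306 CPM (Irf8) in Rag2-/-γc-/- libraries and 2087 CPM (Wdfy4) and 1990 CPM (Irf8) in C57BL/6J libraries. C57BL/6J library 1 stood apart from the rest, with 1.34% of counts from mitochondrial genes against 2.91 to 4.002% in the other 9 libraries. In bulk RNA, fewer cells of a type and less RNA per cell cannot be told apart.

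The upstream sequences of 5 of the genes are printed to show what the co-varying globin genes and Alas2 hold upstream of their start sites, and how Epor and Spnb1 compare. They were taken from RefSeq (build GRCm38.p6), run 5′ to 3′ on the strand of the gene, and cover at most the 250 bases before the RefSeq start. Each is cut at the first annotated exon base met from the upstream end. Printed are bases 250 to 4 before the start for Hba-a2, 250 to 169 for Hbb-b1 and 250 to 43 for Alas2. For Epor and Spnb1 all 250 are printed. Capitals mark matches on either strand to AGATAA or TGATAA, which contain the core that GATA factors bind, and to CCNCNCCC, the form of CACCC box that KLF1 binds; the 2 kinds do not overlap in these windows.
Hba-a2, chr11:32296242-32296488 (+): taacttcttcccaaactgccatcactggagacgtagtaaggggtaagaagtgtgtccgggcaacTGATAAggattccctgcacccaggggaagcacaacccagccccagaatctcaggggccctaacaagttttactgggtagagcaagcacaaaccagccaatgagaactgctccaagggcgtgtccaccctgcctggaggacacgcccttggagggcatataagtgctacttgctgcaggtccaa
Hbb-b1, chr7:103828097-103828178 (-): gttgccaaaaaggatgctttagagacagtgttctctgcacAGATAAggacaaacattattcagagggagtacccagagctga
Alas2, chrX:150547167-150547374 (+): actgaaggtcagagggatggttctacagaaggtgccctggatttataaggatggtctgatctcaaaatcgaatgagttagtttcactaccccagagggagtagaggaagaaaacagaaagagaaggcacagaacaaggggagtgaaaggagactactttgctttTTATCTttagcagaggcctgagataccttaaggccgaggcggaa
Epor, chr9:21963577-21963826 (-): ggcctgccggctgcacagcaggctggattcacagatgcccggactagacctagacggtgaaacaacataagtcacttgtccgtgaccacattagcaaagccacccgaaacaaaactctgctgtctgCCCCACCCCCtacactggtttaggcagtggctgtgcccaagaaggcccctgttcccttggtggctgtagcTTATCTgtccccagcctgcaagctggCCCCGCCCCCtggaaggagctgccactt
Spnb1, chr12:76710548-76710797 (-): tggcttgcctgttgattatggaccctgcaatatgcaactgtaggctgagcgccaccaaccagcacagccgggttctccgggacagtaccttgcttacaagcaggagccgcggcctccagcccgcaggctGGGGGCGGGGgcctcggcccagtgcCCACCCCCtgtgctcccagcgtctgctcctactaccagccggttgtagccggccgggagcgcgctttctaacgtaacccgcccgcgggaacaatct
A GATA match was present before 5 of the 9 genes (Hbb-b1, Hba-a2, Alas2, Epor and Klf1), and 16.6% of 32851 RefSeq promoter windows of the same length held one. A CCNCNCCC match was present before 7 of the 9, all but Hba-a2 and Klf1, against 45.9% of the windows; in Hbb-b1 and Alas2 it lay in the bases not printed. Hbb-b1, Alas2 and Epor held both kinds, as did 4.5% of the windows. Matches of letters describe the sequence and do not show binding.

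Of the 9 genes, Tmod1, Spnb1 and Epor rose in Rag2-/-γc-/- recipients and none fell, where 4.47% of all tested genes rose and 3.32% fell (7.79% in either direction). Hbb-b1, Hba-a2 and Alas2 had higher means in Rag2-/-γc-/- libraries, but 1 C57BL/6J library reached the Rag2-/-γc-/- range and none of the 3 passed the test. Tspan33 averaged 89.3 CPM in Rag2-/-γc-/- libraries and 85.8 CPM in C57BL/6J libraries and did not pass. Klf1 and Gata1 were too low for the filter on counts, which the other 7 passed. Tests used edgeR's quasi-likelihood F test on all 13966 genes that passed, with Benjamini-Hochberg adjusted p-values and a threshold of 0.05. The median log2 fold change of the 7 genes was 1.74, beside -0.00375 over all tested genes. Tmod1 and Epor reached the filter's minimum of 0.253 CPM in all 5 Rag2-/-γc-/- libraries but in 0 and 1 C57BL/6J libraries, so they passed it through the group in which they were high, and neither the count nor the median is support for a shift of the set.

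**Figure D1:**
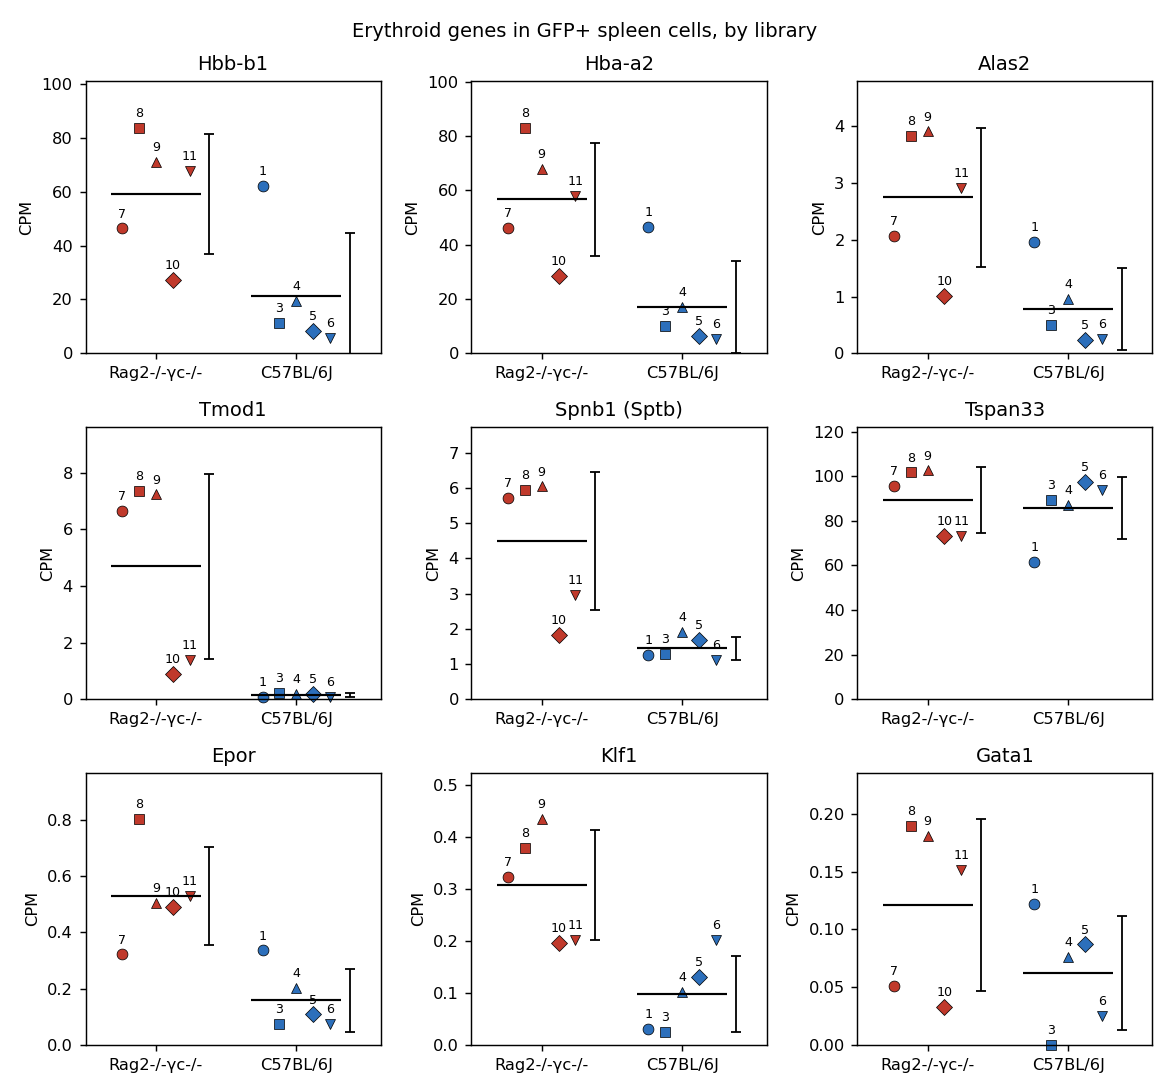
Level of each of the 9 genes in every library (CPM, linear axes from 0, one panel a gene), Rag2-/-γc-/- libraries in red on the left and C57BL/6J libraries in blue on the right; numbers and symbols mark the library, horizontal lines the group mean, and vertical bars 1 SD either side of it, cut at 0 for Hbb-b1. C57BL/6J library 1, at 62.3 CPM for Hbb-b1, lies within the Rag2-/-γc-/- range of the globin genes, while Rag2-/-γc-/- libraries 10 and 11 lie below libraries 7, 8 and 9 for Tmod1 and Spnb1.

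The globin chains of haemoglobin and Alas2, the erythroid form of the first enzyme of haem synthesis, followed one pattern. Hbb-b1 (chr7:103826534-103828096, GRCm38), an adult beta globin, had 46.4, 83.7, 71.0, 27.3 and 67.8 CPM in Rag2-/-γc-/- libraries 7 to 11, against 62.3, 11.4, 19.4, 8.27 and 5.74 CPM in C57BL/6J libraries 1, 3, 4, 5 and 6. C57BL/6J libraries 3, 4, 5 and 6 lay below every Rag2-/-γc-/- library, and library 1 lay above 2 of them. The means were 59.3 ± 22.3 CPM in Rag2-/-γc-/- and 21.4 ± 23.4 CPM in C57BL/6J recipients (SD, n = 5 each). This difference of 1.47 ± 0.59 on the log2 scale (SE) did not pass the test (edgeR adjusted p = 0.146). Without C57BL/6J library 1 it was 2.40, with an adjusted p of 0.0075. With limma-voom sample weights, of which C57BL/6J library 1 had the lowest (0.264), it was 2.53 (adjusted p = 0.000272).

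Hba-a2 (chr11:32296489-32297298), an adult alpha globin, had 46.2, 83.0, 67.8, 28.5 and 57.9 CPM in the Rag2-/-γc-/- libraries, against 46.4, 9.95, 17.2, 6.44 and 5.31 CPM in the C57BL/6J libraries, in the same order. Library 1 of the C57BL/6J group was again the only one to enter the other group's range. The log2 fold change was 1.74 ± 0.55 (edgeR adjusted p = 0.0797). It passed without C57BL/6J library 1 (2.54, adjusted p = 0.00526), without Rag2-/-γc-/- library 10 (1.91, adjusted p = 0.0404) and with DESeq2 (adjusted p = 0.0371). Hba-a2 also passed without Rag2-/-γc-/- libraries 10 and 11 together (1.95, adjusted p = 0.0311) and with limma-voom weights (2.71, adjusted p = 0.000177). Reads of the near-identical globin copies may be divided between genes in the authors' estimates. Summed over each pair, the log2 fold change was 1.55 ± 0.59 for Hbb-b1 plus Hbb-b2 (adjusted p = 0.130) and 1.74 ± 0.56 for Hba-a1 plus Hba-a2 (adjusted p = 0.0849), so the calls were the same for the pairs.

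Alas2 (chrX:150547375-150570638) encodes the erythroid 5-aminolevulinate synthase, which makes the first precursor of haem in red cell precursors. It had 2.07, 3.83, 3.91, 1.013 and 2.91 CPM in the Rag2-/-γc-/- libraries, against 1.95, 0.494, 0.964, 0.239 and 0.252 CPM in the C57BL/6J libraries. The ranges overlapped through the same library 1, which lay above Rag2-/-γc-/- library 10. The log2 fold change was 1.83 ± 0.58 (edgeR adjusted p = 0.0779). It passed without C57BL/6J library 1 (2.49, adjusted p = 0.0184), without Rag2-/-γc-/- library 10 (2.04, adjusted p = 0.0328) and with DESeq2 (adjusted p = 0.0146). Alas2 also passed without Rag2-/-γc-/- libraries 10 and 11 together (2.08, adjusted p = 0.0240) and with limma-voom weights (2.74, adjusted p = 0.000634).

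The adult globin transcripts and Alas2 kept nearly fixed proportions while their total differed widely. Alpha over beta globin counts lay between 0.999 and 1.13 in Rag2-/-γc-/- libraries and between 0.899 and 1.123 in C57BL/6J libraries, with library 1 at 0.899. Alas2 had 14.1 to 20.5 counts per 1000 adult globin counts in Rag2-/-γc-/- libraries and 12.5 to 20.5 in C57BL/6J libraries, a 1.65-fold range over all 10, while the globin share of the library itself spanned 16.2-fold. In library 1 of the C57BL/6J group, high in all 3 genes, there were 13.85 Alas2 counts per 1000 globin counts. Epor spanned 2.87-fold on this scale, at 2.61 to 6.80 per 1000 in Rag2-/-γc-/- libraries and 2.37 to 5.56 in C57BL/6J libraries. Tmod1 did not keep to the globins: it had 8.41 to 53.8 counts per 1000 globin counts in Rag2-/-γc-/- libraries and 0.646 to 9.18 in C57BL/6J libraries, an 83.3-fold range. Spnb1, at 17.9 to 46.3 per 1000 in Rag2-/-γc-/- and 8.83 to 85.7 in C57BL/6J libraries, spanned 9.70-fold. The red cell anion exchanger Slc4a1 spanned 11.8-fold, at 12.7 to 41.2 per 1000 in Rag2-/-γc-/- and 3.50 to 23.4 in C57BL/6J libraries, a wider range than that of Spnb1. Its lowest value was in C57BL/6J library 6, at 0.0503 CPM, where 3 counts make 0.0744 CPM. The lowest value of Tmod1, 0.646, came from 3 counts in the globin-rich C57BL/6J library 1. C57BL/6J library 6, also with 3 counts of Tmod1, had 5.25 per 1000. The width of both ranges thus rests on few counts, and that of Tmod1 also on the globin level of library 1.

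**Figure D2:**
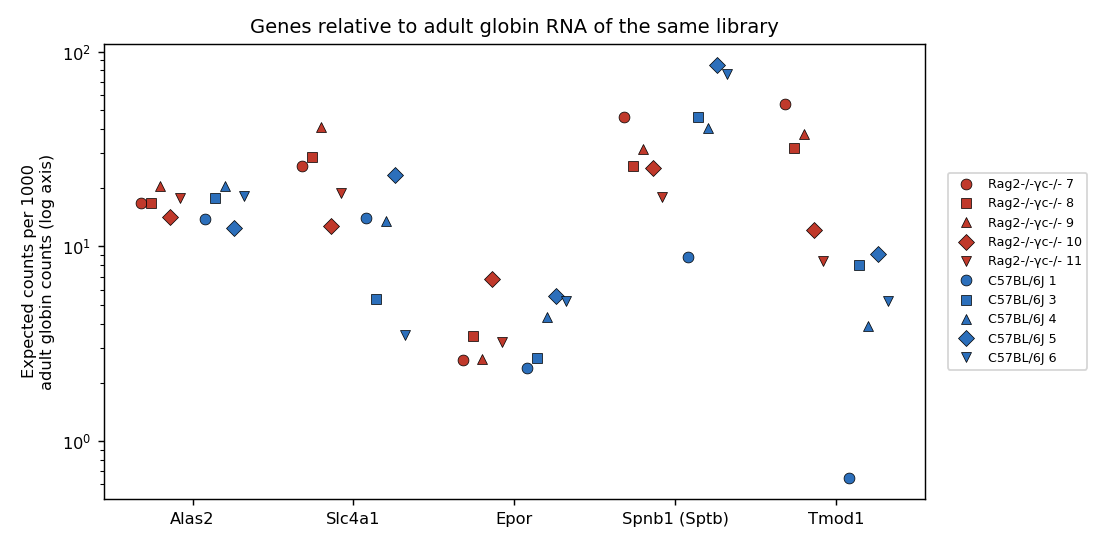
Expected counts of 5 genes per 1000 counts of the 4 adult globin genes in the same library (log axis), Rag2-/-γc-/- libraries in red to the left of C57BL/6J libraries in blue within each gene; each symbol is 1 library. Alas2 stays within a 1.65-fold range over the 10 libraries, whereas Tmod1 spans 83.3-fold.

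Epor (chr9:21958899-21963576), the receptor for erythropoietin, was close to the limit of detection. It had 19, 34, 14, 15 and 21 expected counts in Rag2-/-γc-/- libraries 7 to 11, against 11, 3, 8, 5 and 3 in C57BL/6J libraries 1, 3, 4, 5 and 6, or 0.322 to 0.805 CPM in Rag2-/-γc-/- against 0.0740 to 0.336 CPM in C57BL/6J libraries. The groups overlapped by 1 library on each side, Rag2-/-γc-/- library 7 lying just below C57BL/6J library 1. Epor rose by a log2 fold change of 1.75 ± 0.44 (edgeR adjusted p = 0.0341). The call was lost when any 1 of 6 libraries was left out (Rag2-/-γc-/- 8 or 9, C57BL/6J 3, 4, 5 or 6), with adjusted p up to 0.0929, and without libraries 7, 8 and 9 together (1.69, adjusted p = 0.253).

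The transcription factors Klf1 and Gata1 were lower still and were taken from an edgeR fit of 23191 genes with no filter. Klf1 (chr8:84901928-84905295), which activates adult beta globin, had 19, 16, 12, 6 and 8 expected counts in the Rag2-/-γc-/- libraries, against 1, 1, 4, 6 and 8 in the C57BL/6J libraries. On the CPM scale these were 0.196 to 0.434 CPM in Rag2-/-γc-/- and 0.0247 to 0.201 CPM in C57BL/6J libraries, and C57BL/6J library 6, the highest of its group, reached the level of Rag2-/-γc-/- libraries 10 and 11. Its log2 fold change was 1.58 ± 0.55 (adjusted p = 0.114), and it passed without libraries 10 and 11 together (1.87, adjusted p = 0.0374). The globin-rich C57BL/6J library 1 held 1 count of Klf1. Gata1 (chrX:7959260-7978071), the lineage's main GATA factor, had 3, 8, 5, 1 and 6 counts in the Rag2-/-γc-/- libraries, against 4, 0, 3, 4 and 1 in the C57BL/6J libraries. At that depth a difference was not detectable (log2 fold change 0.92 ± 0.77, 95% interval -0.59 to 2.44, adjusted p = 0.463). The count of 0 in C57BL/6J library 3 allows up to 3 counts, or 0.0734 CPM, for counting error only.

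The membrane skeleton gene Tmod1 had the largest fold change of the 9. It lies at chr4:46038935-46116032 and encodes tropomodulin 1, which caps the pointed ends of the short actin filaments of the red cell skeleton and is also made in muscle and other cells. Tmod1 had 6.65, 7.36, 7.24, 0.882 and 1.39 CPM in Rag2-/-γc-/- libraries 7 to 11, against 0.0916, 0.222, 0.178, 0.174 and 0.0755 CPM in C57BL/6J libraries 1, 3, 4, 5 and 6. All 5 Rag2-/-γc-/- libraries lay above all 5 C57BL/6J libraries, as was so for 4.37% of all tested genes, and within the Rag2-/-γc-/- group libraries 10 and 11 lay far below the other 3. Mean levels were 4.70 ± 3.27 CPM in Rag2-/-γc-/- and 0.148 ± 0.0622 CPM in C57BL/6J recipients (SD, n = 5 each), and Tmod1 rose 30.8-fold (log2 fold change 4.94 ± 0.68, edgeR adjusted p = 0.00134). It stayed past the threshold with each library left out in turn (4.73 to 5.21, adjusted p at most 0.00544). Without libraries 7, 8 and 9 the log2 fold change was 2.90 (adjusted p = 0.0181), and without libraries 10 and 11 it was 5.53. The globin-rich C57BL/6J library 1 was among the lowest for Tmod1, with 3 expected counts.

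Spnb1 (chr12:76580488-76710547) encodes erythroid beta spectrin, the long flexible chain of the same skeleton. It had 5.71, 5.94, 6.04, 1.83 and 2.96 CPM in the Rag2-/-γc-/- libraries, against 1.25, 1.28, 1.90, 1.68 and 1.107 CPM in the C57BL/6J libraries. Rag2-/-γc-/- library 10 lay just below the highest C57BL/6J library, and the other 4 lay above that group. Spnb1 rose 3.11-fold (log2 fold change 1.64 ± 0.33, edgeR adjusted p = 0.0131) and remained called with each library left out in turn, with adjusted p at most 0.0400. Without libraries 7, 8 and 9 the call was lost (log2 fold change 0.73, adjusted p = 0.357).

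Tspan33 (chr6:29694222-29718559) encodes a tetraspanin that partners the protease ADAM10 and is made in erythroid progenitors and in activated B cells. It had 95.5, 102, 103, 73.3 and 73.3 CPM in the Rag2-/-γc-/- libraries, against 61.7, 89.2, 87.0, 97.3 and 93.7 CPM in the C57BL/6J libraries. The groups overlapped throughout, with the lowest value in C57BL/6J library 1. The log2 fold change was 0.06 ± 0.14 with a 95% interval of -0.23 to 0.34 (edgeR adjusted p = 0.820). Its sign turned when C57BL/6J library 1 was left out (-0.04), and also without Rag2-/-γc-/- libraries 7, 8 and 9 (-0.23).

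**Figure D3:**
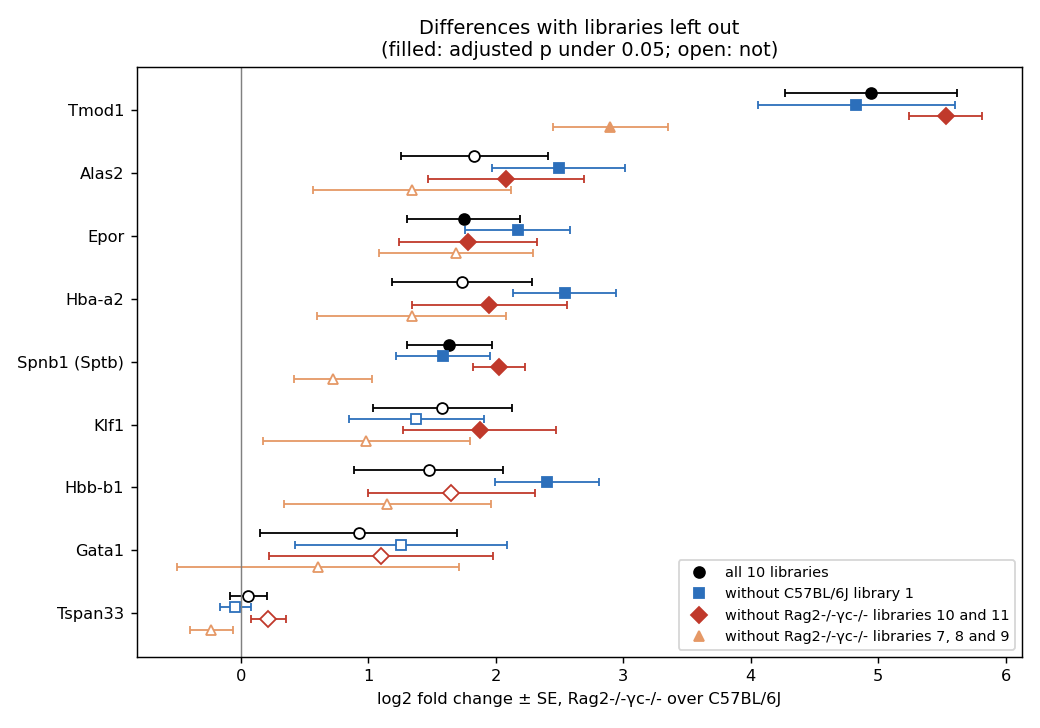
Log2 fold change (Rag2-/-γc-/- over C57BL/6J) with its SE for the 9 genes, with all 10 libraries (black circles), without C57BL/6J library 1 (blue squares), without Rag2-/-γc-/- libraries 10 and 11 (red diamonds) and without Rag2-/-γc-/- libraries 7, 8 and 9 (orange triangles); filled symbols have an edgeR adjusted p under 0.05, and Klf1 and Gata1 come from fits with no filter. Only Tmod1 is filled in every setting shown, and Hbb-b1, Hba-a2 and Alas2 are filled without C57BL/6J library 1.

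Levels between genes were compared as CPM per kilobase of merged exon, and neighbours in the order are said to overlap where their libraries' ranges did. In Rag2-/-γc-/- libraries Hba-a2 (84.9 CPM per kilobase) and Hbb-b1 (77.2) came first and overlapped, and Tspan33 (17.2) stood clear below them. Tmod1 (1.19), Alas2 (1.14), Spnb1 (0.370), Epor (0.267) and Klf1 (0.200) followed, each overlapping the next, and Gata1 (0.0497) lay below Klf1 without overlap. In C57BL/6J libraries the order on the same scale was Hbb-b1 (27.9), Hba-a2 (25.6), Tspan33 (16.5), Alas2 (0.325), Spnb1 (0.119), Epor (0.0802), Klf1 (0.0639), Tmod1 (0.0376) and Gata1 (0.0255). There every neighbour overlapped the next except Tspan33 and Alas2. By group mean, Tmod1 thus ranked 4th of the 9 in Rag2-/-γc-/- and 8th in C57BL/6J libraries. In Rag2-/-γc-/- library 10 it lay below Alas2 (0.224 against 0.422 CPM per kilobase), as it did in library 11, so it was not 4th in either.

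The globin genes and Alas2 were most like each other, and Tmod1 most like Spnb1, when log2 CPM was compared between the 9 genes over the 10 libraries after each group's mean was subtracted. These correlations describe libraries that share depth and composition, and no p-value is given. Hbb-b1 and Hba-a2 had a Pearson r of 0.995 (Spearman rho 0.988), and Hbb-b1 and Alas2 an r of 0.966 (rho 0.915). Without the 2 libraries farthest from the median of Hbb-b1 (C57BL/6J 1 and 6) these were 0.987 and 0.980. Tmod1 and Spnb1 had an r of 0.939 (rho 0.952), and 0.852 without Rag2-/-γc-/- libraries 10 and 11. Tspan33, which encodes no skeleton protein, had an r of 0.728 with Tmod1, 0.664 with Spnb1 and 0.735 with Klf1 (0.553, 0.551 and 0.875 without the 2 farthest libraries of Tmod1, Spnb1 and Klf1). Between the globins and the Tmod1 pair likeness was weak: Tmod1 and Hbb-b1 had an r of 0.220 (rho 0.467), and 0.0382 without libraries 10 and 11. Epor lay with the globins (r 0.838 with Hbb-b1, 0.595 without Rag2-/-γc-/- library 8 and C57BL/6J library 1), while the r of Klf1, with 1 to 19 counts per library, with Hbb-b1 changed sign (-0.39 with all libraries, 0.331 without C57BL/6J libraries 1 and 6).

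Among the tested genes, leaving out predicted ones, those most like each gene on this measure were of different kinds. For Hbb-b1 they were Hba-a2, Hbb-b2 and Hba-a1 (r 0.995, 0.986 and 0.983), the other adult globin genes, and for Alas2 they were Hba-a1, Hba-a2 and Pydc3 (r 0.977, 0.976 and 0.973). For Tmod1 they were Fkbp5, Usp32 and Zbtb20 (r 0.991, 0.988 and 0.988), and for Spnb1 they were Fcgr4, Cnih2 and Diap2 (r 0.984, 0.975 and 0.971). Fkbp5, an abundant co-chaperone of steroid receptors, averaged 332 CPM and had a log2 fold change of 1.21 (edgeR adjusted p = 0.138). For Tspan33 they included AC163357.1 and Phka1 (r 0.982 and 0.976).

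A further 97 genes in 7 lists give the setting. The lists hold genes of red cell pathways, some of them also used by other cells, and paralogues of tropomodulin and spectrin. Of the 97 genes, 68 were tested, 6 rose and 4 fell (8.82% rose and 5.88% fell, beside 4.47% and 3.32% of all tested genes), with a median log2 fold change of 0.10, and 39 of the 68 fold changes were positive. These shares are therefore not of genes restricted to red cells. Both other adult globins missed the threshold: Hba-a1 averaged 24.6 ± 11.7 CPM in Rag2-/-γc-/- and 7.30 ± 7.69 CPM in C57BL/6J recipients, and Hbb-b2 15.9 ± 7.01 CPM in Rag2-/-γc-/- and 4.28 ± 4.66 CPM in C57BL/6J recipients. The embryonic genes Hba-x, Hbb-bh1 and Hbb-bh2 had no counts in any library, and Hbb-y was seen only in Rag2-/-γc-/- library 8, at 0.0710 CPM. None of 13 genes of haem synthesis that most cells use, from Alas1 to Fech with their transporters, passed the test (median -0.30), and the most abundant, the mitochondrial carrier Slc25a39, averaged 72.8 ± 6.33 CPM in Rag2-/-γc-/- and 90.0 ± 14.8 CPM in C57BL/6J recipients. Alas1, the housekeeping paralogue of Alas2, averaged 33.7 ± 1.73 CPM in Rag2-/-γc-/- and 34.8 ± 5.68 CPM in C57BL/6J recipients (log2 fold change -0.04, adjusted p = 0.818).

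Of 23 genes of the red cell membrane and skeleton, 10 were tested, 3 rose and none fell (median 0.22; with no filter, 7 of 23 rose and none fell, beside 2.60% that rose and 2.42% that fell of all 23191 genes fitted). Aqp1, the water channel of red cells and small vessels, had 0.359 to 1.18 CPM in Rag2-/-γc-/- libraries, against 0.0435 to 0.153 CPM in C57BL/6J libraries, without overlap. It rose by a log2 fold change of 3.22 ± 0.42 (edgeR adjusted p = 0.000936), and it passed the filter through its 5 Rag2-/-γc-/- libraries alone. Tmcc2 averaged 5.67 ± 1.41 CPM in Rag2-/-γc-/- and 2.65 ± 0.583 CPM in C57BL/6J recipients and rose by 1.10 ± 0.23 (adjusted p = 0.0142). Epb4.1, the protein 4.1 that joins spectrin to the membrane and is also used outside red cells, averaged 141 ± 16.1 CPM in Rag2-/-γc-/- and 105 ± 8.07 CPM in C57BL/6J recipients (log2 fold change 0.42 ± 0.10, adjusted p = 0.0241). Its call was lost when any 1 of 6 libraries was left out (Rag2-/-γc-/- 7, 8 or 9, C57BL/6J 3, 5 or 6), with adjusted p up to 0.0707. The list's most abundant gene, the adducin Add1, averaged 166 ± 8.92 CPM in Rag2-/-γc-/- and 153 ± 14.7 CPM in C57BL/6J recipients and did not pass (adjusted p = 0.424).

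A further 3 membrane genes, singled out after their values were seen, are more restricted to red cells. Slc4a1, the anion exchanger band 3, had 3.20, 6.60, 7.85, 0.915 and 3.11 CPM in Rag2-/-γc-/- libraries 7 to 11, against 1.99, 0.148, 0.634, 0.457 and 0.0503 CPM in C57BL/6J libraries 1, 3, 4, 5 and 6. Only Rag2-/-γc-/- library 10 lay below C57BL/6J library 1, and the log2 fold change was 2.75 ± 0.79 (edgeR adjusted p = 0.0553; 0.0466 with no filter). Rhag, a membrane protein of the Rh complex, had 0.131 to 0.757 CPM in Rag2-/-γc-/- libraries, against 0 to 0.0916 CPM in C57BL/6J libraries, and rose in the fit with no filter (log2 fold change 3.47 ± 0.69, adjusted p = 0.00952). Rhd, another protein of that complex, also passed in that fit, with a log2 fold change of 2.28 ± 0.62 (adjusted p = 0.0466). Rhag and Rhd were under 1 CPM in every library. These genes do not stand for the whole list, of which 7 of 23 rose in the fit with no filter. In that fit Spna1 (log2 fold change 2.82, edgeR adjusted p = 0.0827), Epb4.2 (1.17, 0.418) and Epb4.9 (0.65, 0.463) did not pass. Gypc had a log2 fold change of -0.80 (adjusted p = 0.464).

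The list of transcription factors held genes called in both directions. Of 17 transcription factors and partners, 13 were tested, 2 rose and 2 fell (median 0.27). Of all tested genes 4.47% rose and 3.32% fell. Bcl11a, a repressor of embryonic globin genes in the mouse that is also needed for lymphoid and dendritic cells, fell by 3.43 ± 0.35 on the log2 scale, averaging 0.575 ± 0.213 CPM in Rag2-/-γc-/- and 6.13 ± 2.13 CPM in C57BL/6J recipients (edgeR adjusted p = 0.000249). Myb, a factor of early progenitors, averaged 0.0572 ± 0.0502 CPM in Rag2-/-γc-/- and 0.458 ± 0.162 CPM in C57BL/6J recipients and fell by 2.86 ± 0.52 (adjusted p = 0.00706); it passed the filter through its C57BL/6J libraries alone, and without Rag2-/-γc-/- libraries 7, 8 and 9 its adjusted p was 0.0849. Bach1, a repressor whose activity haem controls, averaged 30.6 ± 5.30 CPM in Rag2-/-γc-/- and 18.3 ± 2.44 CPM in C57BL/6J recipients and rose by 0.74 ± 0.14 (adjusted p = 0.0109), with an adjusted p of 0.204 without libraries 7, 8 and 9. Zfpm1, the GATA1 partner FOG1, averaged 37.5 ± 13.9 CPM in Rag2-/-γc-/- and 19.2 ± 5.19 CPM in C57BL/6J recipients and rose by 0.97 ± 0.25 (adjusted p = 0.0369). That call was lost when Rag2-/-γc-/- library 7, 8 or 9 or C57BL/6J library 4, 5 or 6 was left out, with adjusted p up to 0.0933. The most abundant of the list, Cbfa2t3, averaged 204 ± 39.2 CPM in Rag2-/-γc-/- and 207 ± 41.1 CPM in C57BL/6J recipients.

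The counts that follow stand beside 4.47% that rose and 3.32% that fell of all tested genes. Of 14 genes of erythropoietin signalling and early progenitors, 13 were tested, none rose and 1 fell (median -0.02). That gene was Kit, the stem cell factor receptor of early progenitors and mast cells, with 0.163 to 0.434 CPM in Rag2-/-γc-/- libraries and 3.21 to 7.52 CPM in C57BL/6J libraries, without overlap (log2 fold change -4.30 ± 0.36, edgeR adjusted p = 7.2e-05). The kinase Jak2, which acts beneath Epor, averaged 202 ± 75.0 CPM in Rag2-/-γc-/- and 164 ± 24.9 CPM in C57BL/6J recipients (adjusted p = 0.448), and Cd36, the list's most abundant gene, 362 ± 57.9 CPM in Rag2-/-γc-/- and 398 ± 53.1 CPM in C57BL/6J recipients (adjusted p = 0.522). Of 15 late enzymes and clearance genes, 12 were tested, none rose and 1 fell (median 0.16). This was Prdx2, a peroxiredoxin made in most cells, with 81.6 ± 4.64 CPM in Rag2-/-γc-/- and 107 ± 17.6 CPM in C57BL/6J recipients (log2 fold change -0.39 ± 0.11, adjusted p = 0.0486), a call lost when any 1 of 7 libraries was left out, with adjusted p up to 0.125. Gpx1, the most abundant, averaged 869 ± 33.4 CPM in Rag2-/-γc-/- and 903 ± 130 CPM in C57BL/6J recipients. Of 7 paralogues of tropomodulin and spectrin, 5 were tested and 1 rose (median 0.22). Spnb2, the beta spectrin of most other cells, averaged 92.0 ± 13.5 CPM in Rag2-/-γc-/- and 63.5 ± 10.2 CPM in C57BL/6J recipients and rose by 0.54 ± 0.14 (adjusted p = 0.0369). Its call was lost without Rag2-/-γc-/- library 7, 8, 9 or 11 or C57BL/6J library 4 or 5, with adjusted p up to 0.0887. Tmod3, the widely made tropomodulin, averaged 94.95 ± 2.39 CPM in Rag2-/-γc-/- and 103 ± 9.59 CPM in C57BL/6J recipients and did not pass (log2 fold change -0.11, adjusted p = 0.383), and Spna2 averaged 214 ± 31.1 CPM in Rag2-/-γc-/- and 184 ± 15.01 CPM in C57BL/6J recipients. Without Rag2-/-γc-/- libraries 7, 8 and 9 the calls of Epb4.1, Zfpm1, Prdx2 and Spnb2 were lost as well (adjusted p = 0.422, 0.367, 0.423 and 0.377).

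Markers of red cells and of other spleen cells were summed in each library. The summed level of 11 defining erythroid markers was 74.7 to 244 CPM in Rag2-/-γc-/- libraries, against 15.2 to 147 CPM in C57BL/6J libraries, of which library 1 had 147 and the other 4 at most 48.6. None of its 7 tested genes passed the test, and none of the 11 was at 0 in every library. The sum of 14 red pulp macrophage markers was 814 to 1322 CPM in Rag2-/-γc-/- libraries and 305 to 789 CPM in C57BL/6J libraries. Library 1 was again the highest C57BL/6J library. Of the list's 13 tested genes 3 rose and 1 fell, beside 4.47% that rose and 3.32% that fell of all tested genes. Most of that sum was Hmox1, which degrades haem and is induced in many cell types, at 767 ± 205 CPM in Rag2-/-γc-/- and 390 ± 109 CPM in C57BL/6J recipients (log2 fold change 0.97 ± 0.21, edgeR adjusted p = 0.0186). The iron exporter Slc40a1 averaged 75.3 ± 26.6 CPM in Rag2-/-γc-/- and 22.6 ± 12.6 CPM in C57BL/6J recipients and rose by 1.74 ± 0.42 (adjusted p = 0.0289). The part of these cells in the globin, Alas2, Tmod1 and Spnb1 values was not tested.

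Among lymphoid and other lists, B cell markers summed to 38.9 to 50.6 CPM in Rag2-/-γc-/- libraries and 10.8 to 152 CPM in C57BL/6J libraries, with library 1 at 152. That library held 38.3 CPM of the B cell gene Cd79a, against at most 0.814 CPM in Rag2-/-γc-/- libraries and at most 5.01 CPM in the other C57BL/6J libraries. The B cell sums of C57BL/6J libraries 3, 4, 5 and 6 (22.88, 10.76, 11.42 and 23.97 CPM) lay below every Rag2-/-γc-/- library. Most genes of the list went the other way. Its median log2 fold change was -3.61 with the filter and -5.42 with none, so the sum does not describe the B cell genes as a set. T cell markers summed to 19.5 to 45.6 CPM in Rag2-/-γc-/- and 59.5 to 114 CPM in C57BL/6J libraries, without overlap. The mast cell and basophil list summed to 2.28 to 10.96 CPM in Rag2-/-γc-/- and 0.730 to 1.90 CPM in C57BL/6J libraries and was led by the histidine decarboxylase gene Hdc, which had 9.46, 10.01, 8.51, 1.111 and 1.77 CPM in Rag2-/-γc-/- libraries 7 to 11, against 0.579 to 1.63 CPM in C57BL/6J libraries. Libraries 10 and 11 were again far below libraries 7, 8 and 9. Of the 10 genes of that list, 3 had no counts in any library and 2 were tested, Hdc and Fcer1a, which both rose. Fcer1a reached the filter's minimum in 5 Rag2-/-γc-/- libraries and 1 C57BL/6J library, so it passed through the group in which it was high, and over the 7 genes fitted with no filter the median log2 fold change was 0.04. Megakaryocyte and platelet markers summed to 11.6 to 32.4 CPM in Rag2-/-γc-/- and 29.1 to 55.4 CPM in C57BL/6J libraries, and neutrophil markers to 5.06 to 28.5 CPM in Rag2-/-γc-/- and 3.64 to 27.6 CPM in C57BL/6J libraries. The cross-presenting dendritic cell list summed to 3632 to 5426 CPM in Rag2-/-γc-/- libraries and 5736 to 7534 CPM in C57BL/6J libraries, without overlap. Eosinophil markers summed to 60.1 to 74.0 CPM in Rag2-/-γc-/- and 66.3 to 89.5 CPM in C57BL/6J libraries, natural killer markers to 0.817 to 4.37 CPM in Rag2-/-γc-/- and 1.33 to 4.73 CPM in C57BL/6J libraries, and endothelial and stromal markers to 0.817 to 1.88 CPM in Rag2-/-γc-/- and 1.37 to 2.18 CPM in C57BL/6J libraries. Most lymphoid markers were too low for the filter, so their counts are from the fit with none. In it 7 of 10 T cell genes fell, 6 of 8 B cell genes fell and 1 rose, and 3 of 7 natural killer genes fell. Of all 23191 genes in that fit, 2.60% rose and 2.42% fell. With the filter, 4.47% of all tested genes rose and 3.32% fell. There, 2 of 5 T cell genes fell, 1 of 4 B cell genes rose and 1 fell, and the 1 natural killer gene tested did not pass. Of the other lists' tested genes, 2 of 5 fell for megakaryocytes, 1 of 8 for dendritic cells and 1 of 2 for endothelium and stroma, while none of 7 neutrophil and 2 eosinophil genes passed. Their part in the results above was not tested.

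**Figure D4:**
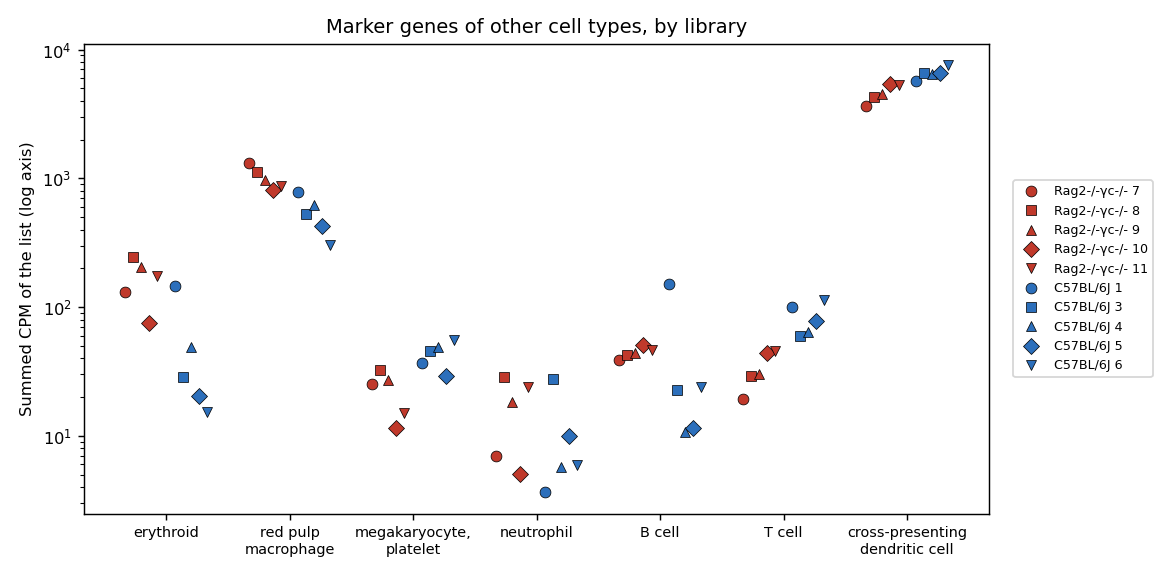
Summed CPM of 7 marker lists in every library (log axis), Rag2-/-γc-/- libraries in red to the left of C57BL/6J libraries in blue within each list; each symbol is 1 library. C57BL/6J library 1 is the highest of its group for the erythroid, red pulp macrophage and B cell lists, at 147, 789 and 152 CPM.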

How the data were processed

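Poly(A)-selected RNA of GFP+ splenocytes was sequenced as single reads, per the labels' protocols. The authors deposited expected counts per Ensembl gene, in which a read matching more than one gene is shared out among them; 15.3 to 17.3% of a library's values were not whole, and all were rounded for the tests. Cutadapt 1.11, STAR 2.5.2a, RSEM 1.2.30, edgeR and build GRCm38 are named, per the submitters' processing notes; tool settings, annotation release and strand handling were not given in the sources used here, so reads of overlapping genes may not be told apart.

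Recipient groups came from the labels. edgeR 4.0.16 (R 4.3.3) was fitted to all 10 libraries with TMM scaling, filterByExpr (minimum count 10, minimum total 15) and a group term, with Benjamini-Hochberg adjustment over 13966 genes and a threshold of 0.05. Fold changes are Rag2-/-γc-/- over C57BL/6J; the SE was obtained by dividing the unshrunken coefficient by √F. Klf1 and Gata1, which the filter removed, came from a fit with no filter. Log2 CPM used a prior count of 2.

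On counts simulated from these libraries (13966 genes) the test recovered 24% of genes changed 1.5-fold, 60.4% changed 2-fold, 95.8% changed 4-fold and 100% changed 8-fold. Of its calls 4.9% were false. Counts of each gene were drawn independently, so shifts that many genes share, as between Rag2-/-γc-/- libraries, were not simulated. These shares may therefore not hold for the real libraries. Alternatives were other scalings, filters and tools (DESeq2 1.42.0, limma 3.58.1 voom with sample weights) and leaving out libraries.

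Named were the 9 genes, up to 4 called genes and the most abundant of each of the 7 lists, the 2 most abundant of each marker list where a result touched them, and the 3 genes most like each of the 9 that averaged at least 1 CPM. Outside this rule, Slc4a1, Rhag, Rhd, Spna1, Epb4.2, Epb4.9, Gypc, Alas1, Jak2, Tmod3 and the embryonic globins were named after their values were seen. Some genes that the rule names are not reported here. The genes, lists and left-out pairs or trios of libraries were chosen with earlier results of these data known. Of 216 list entries 2 (both Ahsp) were not matched.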

Additional observations from a re-analysis of the deposited data

Results flagged for a closer look

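C57BL/6J library 1 lay far above the other 4 C57BL/6J libraries for both globin genes. It had 62.3 CPM of Hbb-b1, and its gap to the next library was 0.758 of the group's range. It had 46.4 CPM of Hba-a2, with a gap of 0.71 of the range. Gaps were checked in 18 sets of 5 libraries (9 genes in each group) against Dixon's 95% critical value of 0.71, which chance passes in about 1 in 20 sets. The same library had the lowest mitochondrial share and the highest B cell marker sum; the part of these in its globin values was not tested.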

How the results depend on the processing

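No paired analysis was possible because the recipient groups share no replicate numbers. The count of the 9 genes that rose (3 with all libraries) was 1 with a minimum of 1 CPM in 5 libraries, 5 with DESeq2, 6 with voom weights, 6 without Rag2-/-γc-/- libraries 10 and 11, 1 without libraries 7, 8 and 9, and 2 to 6 with 1 library left out; the count that fell was 0 in every setting run. The minimum of 1 CPM removed Tmod1 and Epor before the test, and Spnb1 stayed called under it (edgeR adjusted p = 0.0131). Of the genes of the 7 lists, 6 rose, against 10 with no filter, 16 with DESeq2, 30 with voom weights, 27 without libraries 10 and 11, 2 without 7, 8 and 9, and 3 to 18 with 1 library left out. Of them 4 fell, against 2 with the 1 CPM minimum, 13 with voom weights, 11 without libraries 10 and 11, 2 without 7, 8 and 9, and 3 to 5 with 1 library left out. Over all tested genes 624 rose and 464 fell. With DESeq2 these were 1155 and 803, with voom weights 3217 and 3306, without libraries 10 and 11 2518 and 2786, without 7, 8 and 9 127 and 148, and with 1 library left out 304 to 1323 and 275 to 1076. The causes were not tested, beyond the genes that the 1 CPM minimum removes and the smaller groups that leaving out libraries makes. Tspan33 turned to a log2 fold change of -0.23 without libraries 7, 8 and 9 and ranged from -0.042 (without C57BL/6J library 1) to 0.12 with 1 library left out. Summing the globin pairs was chosen after seeing the data. Epor, Klf1 and Gata1 had 0 to 34 counts per library, so depth limits them most.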
